A study of Mus musculus with 24 samples.

Results

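The 10 genes described here code for cytokines of the interleukin-1 (IL-1) and interleukin-18 (IL-18) family and for their receptors: Il18r1, Il18rap, Il1rl1, Il1r1, Il1rap, Il1a, Il1b, Il1rn, Il18 and Il33. They were read by 19 probes, taken by gene name from the 41174 probes (27670 genes) of a mouse whole-genome expression array, and the older array design lists Il33 under the name 9230117N10Rik. The genes were chosen by family with the differences between treated and untreated arrays already known, so those measured differences are given as a description and carry no p-value.

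RNA came from Ku70-/- mouse embryonic fibroblasts, 1 cell line that lacks the Ku70 subunit of the non-homologous end joining machinery for double-strand breaks, and all 24 arrays share that deletion. The cells received KBrO3, an oxidizing agent that damages DNA bases, BPA (bisphenol A, a plasticizer monomer), or both. In the first array set, 3 arrays were untreated (labelled 4 h), 3 each held cells given 20 mM KBrO3 for 1 hr and read at 4 or 24 hr, after 3 or 23 hr of repair, and 3 each held co-exposed cells at the same times. Co-exposed cells had 150 µM BPA for 1 hr, BPA with 20 mM KBrO3 for 1 hr and then BPA alone until collection. In the second set, 3 arrays were untreated with no time in their label, 3 were labelled BPA 4 h and 3 BPA 24 h at 150 µM, and per the study's methods these cells were in BPA for 1 hr longer than the labelled time, as the co-exposed cells were. No untreated array was labelled 24 h, so time in culture and treatment cannot be told apart at 24 hr. In the first set the untreated arrays shared a slide with KBrO3 4 hr arrays only. Slide and treatment therefore cannot be told apart in the differences from untreated of co-exposure 4 hr, KBrO3 24 hr and co-exposure 24 hr. The sets were run and normalized separately, and levels are set side by side only within a set.

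Receptors of this family are assembled from a chain that binds the cytokine and an accessory chain, and both carry an intracellular TIR domain that recruits MyD88 and the IRAK kinases and leads to NF-kB and MAP kinase activation. IL1R1 binds IL-1 alpha and IL-1 beta and pairs with IL1RAP. IL1RL1, also called ST2, binds IL-33 and uses the same IL1RAP chain, while IL18R1 binds IL-18 and pairs with IL18RAP. IL1RN is a secreted antagonist that occupies IL1R1 without signaling. IL-1 beta and IL-18 are made as precursors that caspase-1 cleaves in inflammasomes, and IL-33 is a nuclear protein released from damaged cells. Fibroblasts are a known target of IL-1, which makes them secrete chemokines and IL-6.

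The results turn on a few 60-base probes, whose sequences were not aligned to transcripts here. The first 30 bases of 4 probes that match an unbroken stretch of the genome follow in lower case, 5′ to 3′, with positions on mouse build mm7 (NCBI35) as the array files give them.
Il18r1, chr1:40741012-40741071, plus strand: tgtcacaacagctgtgtgtgaaaacctagc
Il1rl1, short transcript, chr1:40688351-40688410, plus strand: ctctgtaacaggatcttttgtctagatttc
Il1rl1, long transcript, chr1:40705585-40705644, plus strand: tgaccttatttgcttaccagttacaggtaa
Il33, chr19:29660344-29660403, plus strand: tcgtacggctgtaacaggtataattgtttc
A further pair of probes spans an exon junction and is shown whole, because a spliced transcript is needed for all 60 bases to match.
Il1rl1, upstream exons, chr1:40680766-40681628, plus strand: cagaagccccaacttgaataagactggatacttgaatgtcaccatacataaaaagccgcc
Il18, chr9:50557947-50560075, plus strand: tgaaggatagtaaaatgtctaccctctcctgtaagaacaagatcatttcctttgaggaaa
Short and long are named from the transcript accession that the array files give for each probe. The short Il1rl1 transcript codes for the soluble form of the receptor, which binds IL-33 without signaling, and the long transcript codes for the membrane form. The upstream probe was designed on the short transcript, upstream of where the short and long probes lie.

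Levels are log2 of the scanner's processed signal minus the 75th percentile of the same array, so that 0 is the 75th percentile of that array and a difference of 1 is a doubling. A probe counted as above background on an array where the scanner software marked it as well above background. Of the 10 genes, 8 had a brightest probe that passed the filter (above background on all 3 arrays of at least 1 group) and also 8 in the second array set, and Il1a and Il1b passed in neither. Il18r1 passed only through treated groups in both sets, so its difference from untreated was bound to be large.

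Il18r1, the IL-18 binding chain, was not above background on any untreated array and was above it on every KBrO3 and co-exposure array. In the first set its levels were -6.84, -6.84 and -6.65 on the untreated arrays, 0.60, 0.57 and 0.54 at KBrO3 4 hr, and 0.36, 0.46 and 0.42 at co-exposure 4 hr. At 24 hr they were -4.59, -4.35 and -4.43 for KBrO3 and -4.34, -3.90 and -4.33 for co-exposure. The 24 hr arrays lay between the untreated and the 4 hr arrays with no overlap. Because the untreated level has only an upper bound, the folds are lower bounds: at least 64.9-fold higher at KBrO3 4 hr, at least 58.1-fold at co-exposure 4 hr, at least 1.99-fold at KBrO3 24 hr and at least 2.39-fold at co-exposure 24 hr. Each bound sets the mean of the brighter group against the lowest signal that was well above background on the dimmer group's arrays, or the probe's own signal where that is higher. The values at 24 hr depended on the background correction: with normexp, a model-based subtraction of local background, the differences from untreated were -1.08 for KBrO3 and -0.88 for co-exposure.

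In the second set Il18r1 was at -9.34, -7.98 and -9.07 on untreated arrays, none above background, at -6.03, -6.21 and -6.18 at BPA 4 hr, all above background, and at -7.26, -8.07 and -9.37 at BPA 24 hr, none above background. The 4 hr arrays stood at least 2.29-fold above untreated. The untreated and BPA 24 hr arrays overlapped, and no fold is given where both groups were below background.

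Il18rap, the accessory chain of the IL-18 receptor, was dim in every group but above background on all 24 arrays. Its levels were -4.27, -4.24 and -4.36 untreated, -3.35, -3.34 and -3.26 at KBrO3 4 hr, -3.38, -3.55 and -3.40 at co-exposure 4 hr, -4.37, -4.10 and -4.41 at KBrO3 24 hr, and -4.47, -4.54 and -4.52 at co-exposure 24 hr. The difference from untreated was 0.97 at KBrO3 4 hr and 0.84 at co-exposure 4 hr, -0.01 at KBrO3 24 hr and -0.22 at co-exposure 24 hr (SE 0.08). The 4 hr arrays did not overlap the untreated ones, and the KBrO3 24 hr arrays did. In the second set the difference was 1.02 at BPA 4 hr and -0.06 at BPA 24 hr (SE 0.28). Both 4 hr differences of the first set turned negative with normexp, at -0.57 for KBrO3 and -0.65 for co-exposure, where the median over all probes moved by -0.51 and -0.53. The other Il18rap probe was above background on no array.

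**Figure D1:**
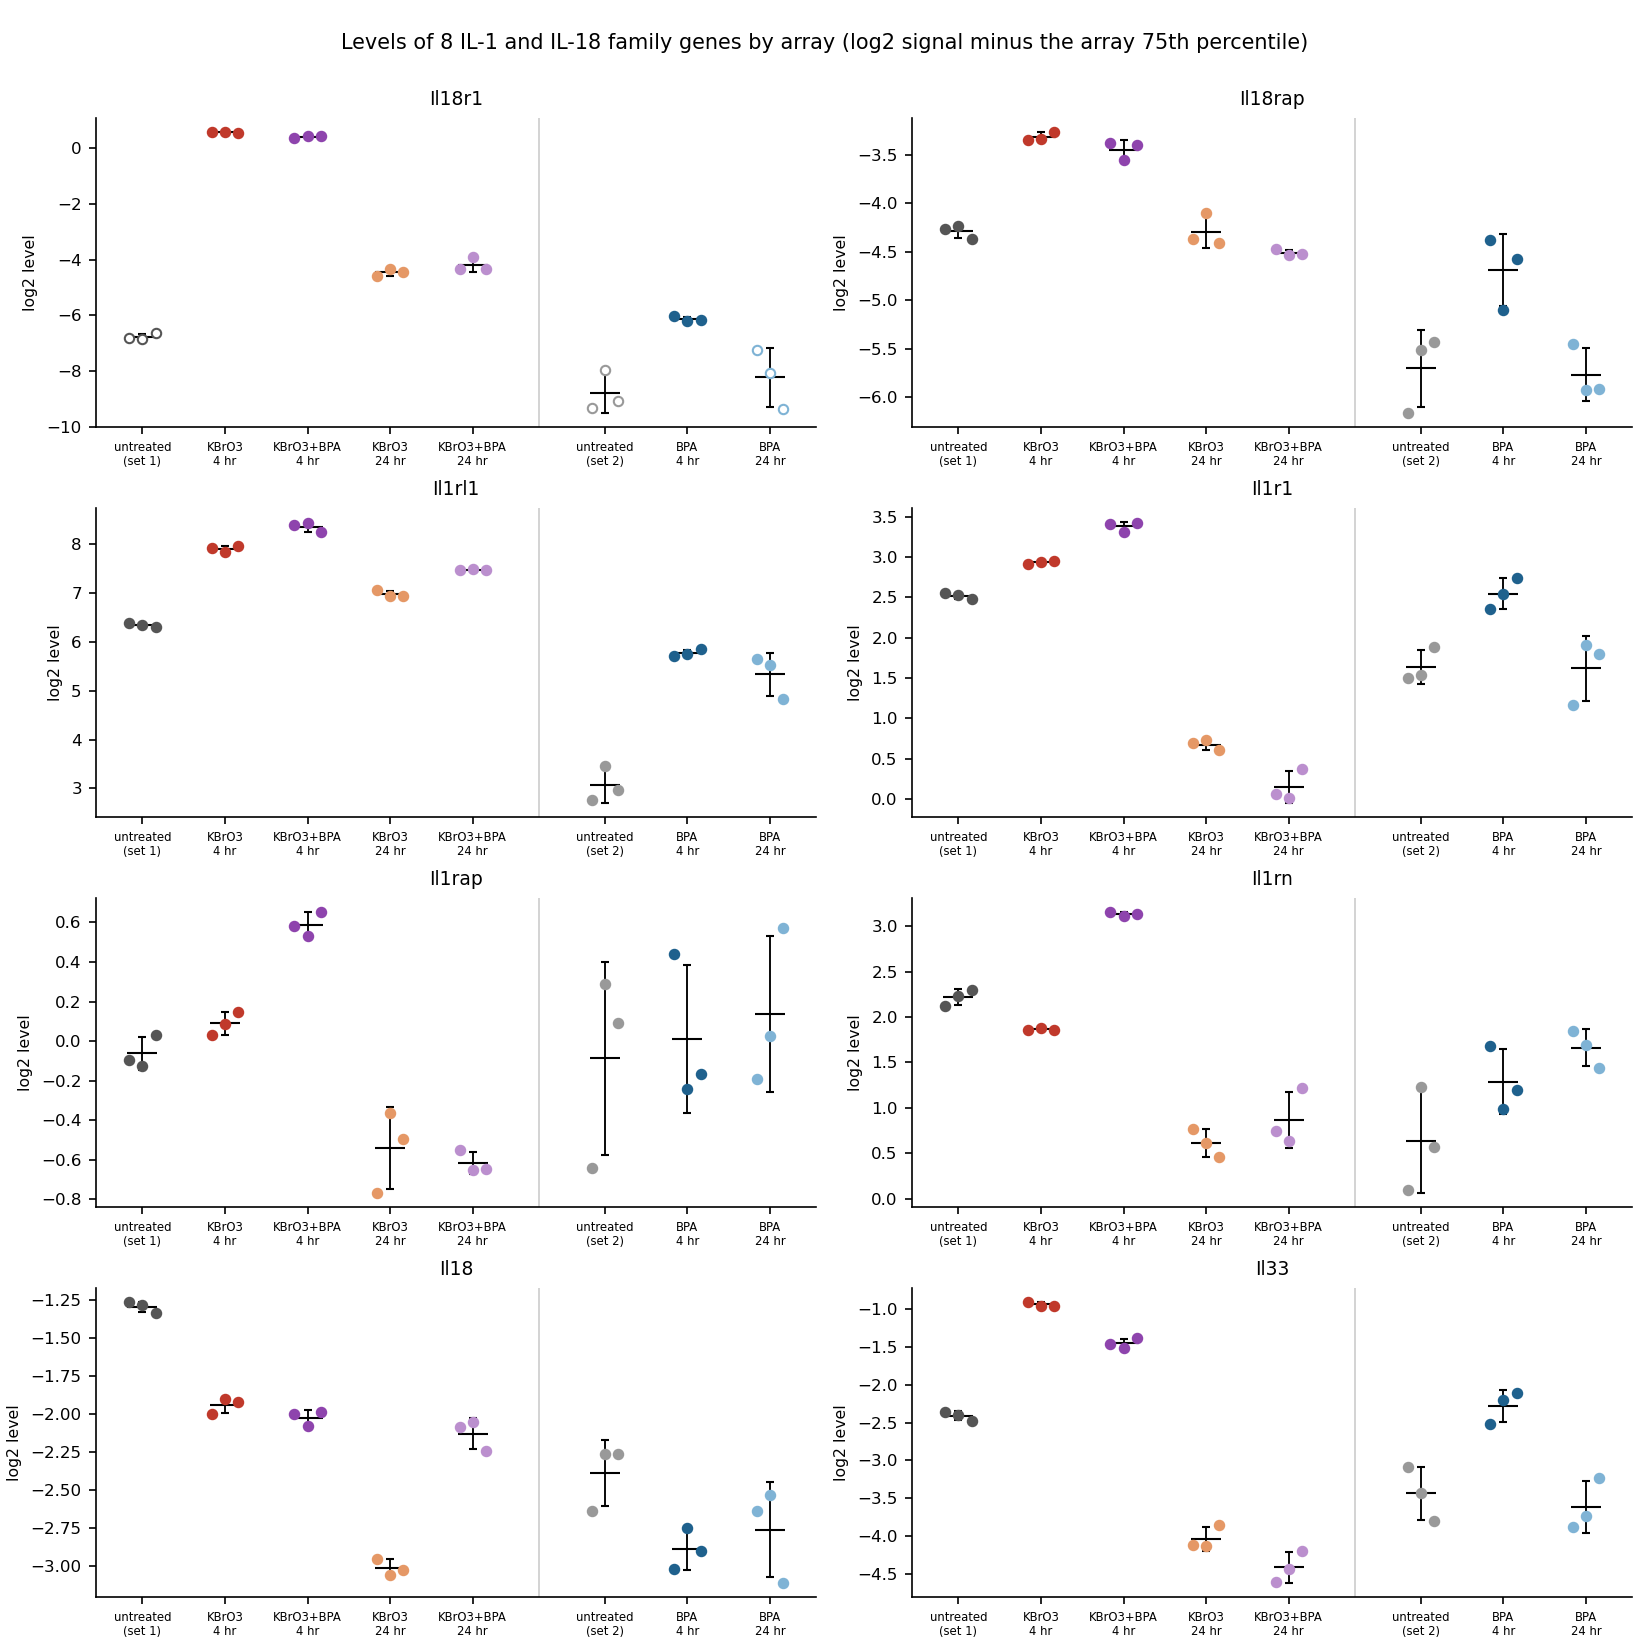
Level of each gene on each array, as log2 signal relative to the 75th percentile of the array (vertical axis), with groups along the horizontal axis, filled points for arrays above background, open points for arrays not above it, and bars for group means of 3 arrays. The KBrO3 4 hr arrays of Il18r1 sit at 0.54 to 0.60 and the untreated arrays of the same set at -6.84 to -6.65.

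Il1rl1, the IL-33 receptor, was higher than untreated in all 6 treated groups on all 3 of its probes. The short-transcript probe stood at 6.39, 6.34 and 6.31 on untreated arrays, 7.92, 7.85 and 7.96 at KBrO3 4 hr, 8.40, 8.44 and 8.25 at co-exposure 4 hr, 7.06, 6.95 and 6.94 at KBrO3 24 hr, and 7.48, 7.49 and 7.48 at co-exposure 24 hr. No array of any treated group overlapped the untreated arrays. Its differences from untreated were 1.56, 2.01, 0.63 and 1.14 in that order (SE 0.06). In the second set it stood at 2.75, 3.47 and 2.97 on untreated arrays, 5.71, 5.75 and 5.85 at BPA 4 hr and 5.65, 5.54 and 4.82 at BPA 24 hr. Those groups were 6.54-fold and 4.83-fold above untreated (log2 differences 2.71 and 2.27, SE 0.27), and neither overlapped the untreated arrays.

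The 3 Il1rl1 probes differed in size of change. The long-transcript probe was 8.67-fold above untreated at KBrO3 4 hr and 9.57-fold at co-exposure 4 hr (log2 differences 3.12 and 3.26, SE 0.05), against 2.95-fold and 4.04-fold for the short-transcript probe. At 24 hr the long-transcript probe was 1.04 above untreated after KBrO3 and 1.16 after co-exposure. With BPA alone its differences were 2.38 at 4 hr and 1.70 at 24 hr (SE 0.35), below those of the short-transcript probe at both times, although no test set the probes against each other. The upstream probe was higher by 1.66, 2.45, 1.32 and 1.41 in the first set (KBrO3 4 hr, co-exposure 4 hr, KBrO3 24 hr, co-exposure 24 hr, SE 0.04) and by 2.59 and 2.38 with BPA alone (SE 0.42).

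**Figure D2:**
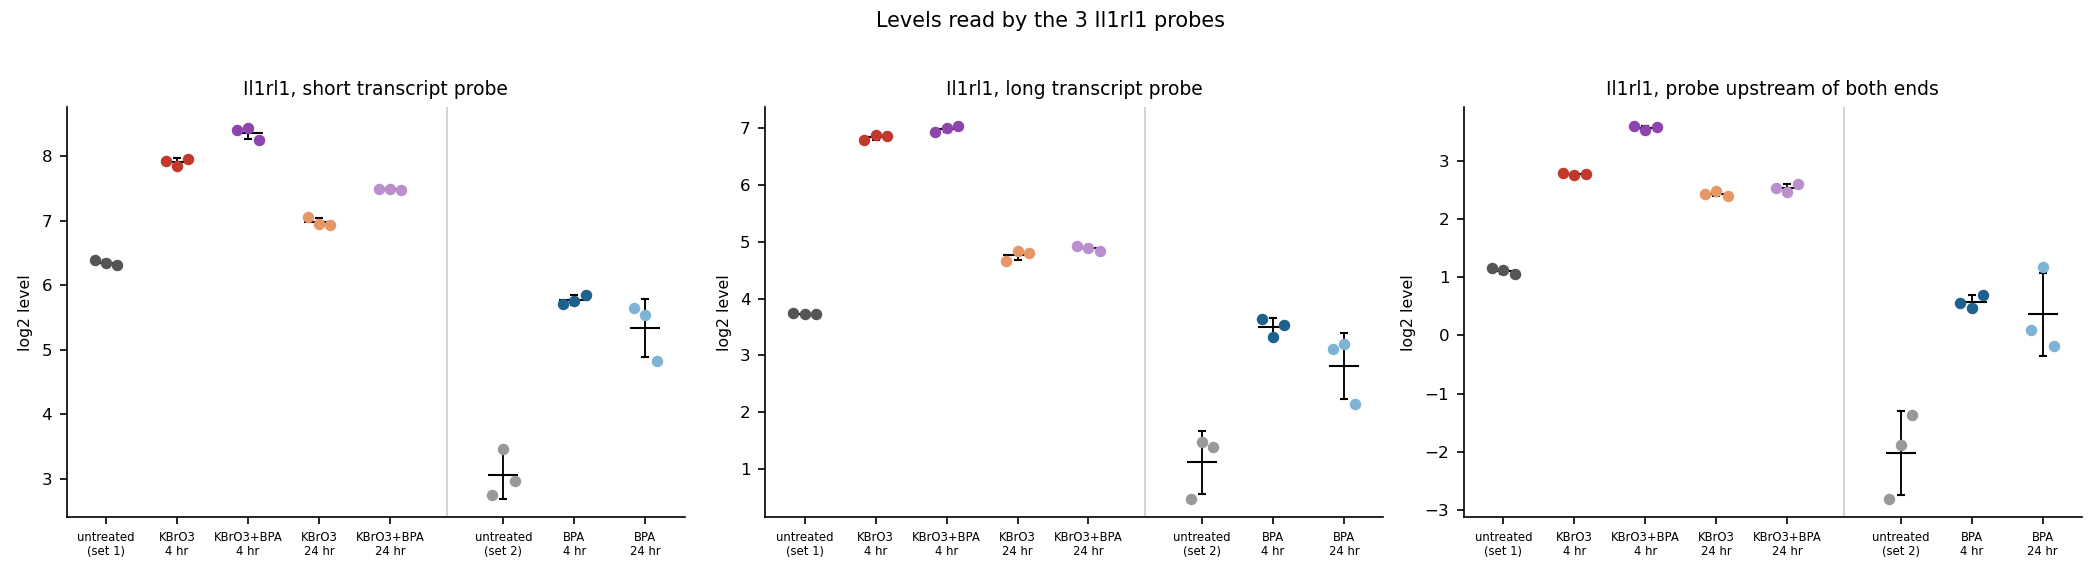
Log2 level (vertical axis) read by the 3 Il1rl1 probes, with a panel for each probe and groups, untreated included, along the horizontal axis. Points are single arrays and bars are standard deviations. On each probe every treated array lies above the untreated arrays of the same set. At KBrO3 4 hr the log2 difference from untreated was 3.12 for the long-transcript probe and 1.56 for the short-transcript probe.

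Il1r1, the signaling IL-1 receptor, was higher than untreated at 4 hr and lower at 24 hr after KBrO3 and after co-exposure. Its levels were 2.55, 2.52 and 2.48 untreated, 2.92, 2.94 and 2.95 at KBrO3 4 hr, 3.40, 3.31 and 3.42 at co-exposure 4 hr, 0.69, 0.73 and 0.60 at KBrO3 24 hr, and 0.06, 0.01 and 0.38 at co-exposure 24 hr. All 5 groups were apart from one another. The differences from untreated were 0.42 and 0.86 at 4 hr, and -1.84 and -2.37 at 24 hr (SE 0.08), which is 3.59-fold lower after KBrO3 and 5.16-fold lower after co-exposure. In the second set the level was 1.5, 1.54 and 1.88 untreated, 2.35, 2.54 and 2.74 at BPA 4 hr, and 1.16, 1.90 and 1.79 at BPA 24 hr. BPA 4 hr was apart from untreated by 0.91 and BPA 24 hr overlapped it.

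Il1rap, the accessory chain shared by IL1R1 and IL1RL1, moved less. Its brightest probe differed from untreated by 0.15 at KBrO3 4 hr, 0.65 at co-exposure 4 hr, -0.48 at KBrO3 24 hr and -0.55 at co-exposure 24 hr (SE 0.09). The BPA groups overlapped untreated, with differences of 0.10 and 0.22 (SE 0.32). The other probe that was above background on all 24 arrays gave -0.28, 0.27, 0.12 and -0.36 in the same order (SE 0.14), and the remaining 3 Il1rap probes were not above background on every array.

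Of the agonist ligands, Il33 was the one whose level was higher than untreated at 4 hr. It stood at -2.36, -2.39 and -2.48 untreated, -0.90, -0.96 and -0.96 at KBrO3 4 hr, -1.46, -1.51 and -1.39 at co-exposure 4 hr, -4.12, -4.13 and -3.85 at KBrO3 24 hr, and -4.61, -4.44 and -4.19 at co-exposure 24 hr. The 4 hr arrays lay above the untreated ones and the 24 hr arrays below them, with no overlap. The differences were 1.47 and 0.96 at 4 hr, and -1.63 and -2.00 at 24 hr (SE 0.10). With BPA alone the levels were -3.09, -3.43 and -3.79 untreated, -2.51, -2.21 and -2.11 at 4 hr, and -3.88, -3.73 and -3.23 at 24 hr, so that 4 hr was 1.16 above untreated without overlap and 24 hr overlapped (-0.18, SE 0.26).

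Il18, the ligand of the IL-18 receptor, was lower than untreated in all 6 treated groups. Its level, the mean of 10 spots per array, was -1.27, -1.29 and -1.33 untreated, -2.00, -1.90 and -1.92 at KBrO3 4 hr, -2.00, -2.08 and -1.99 at co-exposure 4 hr, -2.95, -3.06 and -3.02 at KBrO3 24 hr, and -2.09, -2.05 and -2.25 at co-exposure 24 hr. KBrO3 24 hr was the lowest group, 3.28-fold below untreated (-1.71, SE 0.05), while the other 3 differences ran from -0.65 to -0.83. In the second set Il18 stood at -2.63, -2.26 and -2.26 untreated, -3.02, -2.75 and -2.90 at BPA 4 hr and -2.64, -2.53 and -3.11 at BPA 24 hr. BPA 4 hr lay below untreated without overlap (-0.50, SE 0.22), and BPA 24 hr overlapped it (-0.37).

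Il1rn, the IL-1 receptor antagonist, had co-exposure and KBrO3 alone on opposite sides of untreated at 4 hr on its brightest probe. That probe stood at 2.12, 2.23 and 2.29 untreated, 1.86, 1.88 and 1.85 at KBrO3 4 hr, 3.16, 3.11 and 3.14 at co-exposure 4 hr, 0.77, 0.61 and 0.45 at KBrO3 24 hr, and 0.74, 0.63 and 1.22 at co-exposure 24 hr. The differences were -0.35, 0.92, -1.61 and -1.35 (SE 0.13). The opposite sides rest on that probe: the other Il1rn probe was at -1.53, -0.44, -2.84 and -2.37 from untreated in the same order, below untreated also at co-exposure 4 hr. With BPA alone the brightest probe stood at 0.09, 1.23 and 0.57 untreated, 1.68, 0.99 and 1.20 at 4 hr and 1.85, 1.69 and 1.44 at 24 hr. BPA 4 hr overlapped untreated (0.66) and BPA 24 hr did not (1.03, SE 0.31).

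Il1a and Il1b, the agonists of IL1R1, gave no level to compare. The Il1b probe was above background on 0 of the 24 arrays. The brighter Il1a probe was above background on 2 arrays, both BPA 24 hr, and the other on untreated replicate 1 of set 1 (-4.08) and KBrO3 24 hr replicate 2 (-4.22).

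Over the 8 genes tested, 4 were more than 1.5-fold higher than untreated without overlap at KBrO3 4 hr and 1 was lower, where 22.6% and 23.1% of all genes tested were. At co-exposure 4 hr the counts were 7 higher and 1 lower (all genes 30.3% and 25.6%). At 24 hr they were 2 higher and 4 lower after KBrO3 (12.5% and 20.5%) and the same 2 and 4 after co-exposure (14.7% and 25.7%). BPA alone gave 5 higher and 0 lower at 4 hr (7.75% and 7.37%) and 2 higher and 0 lower at 24 hr (6.47% and 6.85%). The genes were chosen with these comparisons known, and nothing is read from the counts. The comparisons of a set share their 3 untreated arrays.

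**Figure D3:**
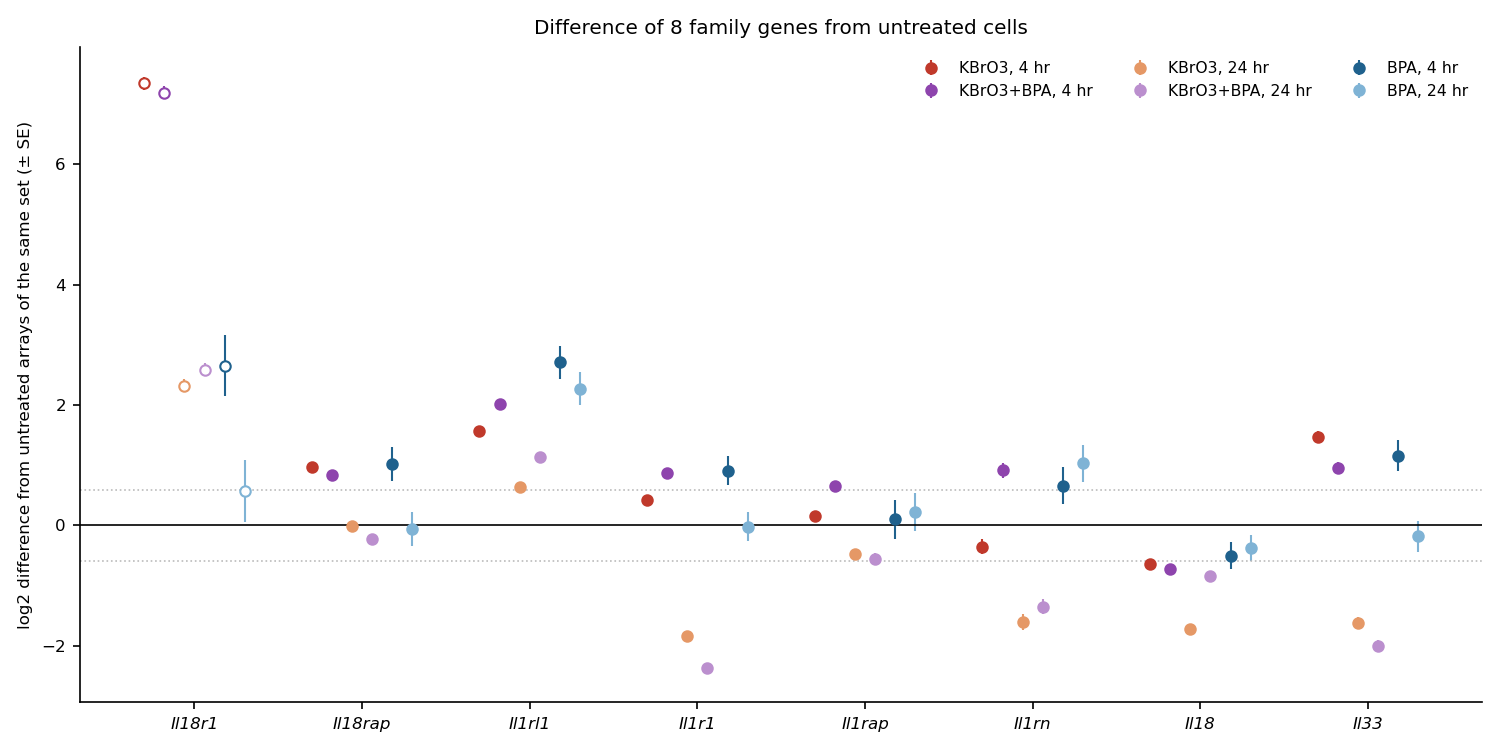
Log2 difference from the untreated arrays of the same set (vertical axis) for the 8 genes tested (horizontal axis), with standard errors and 1 colour per treated group. Open points mark genes with a group not above background, and dotted lines mark 1.5-fold. Il18r1 at 4 hr after KBrO3 is the highest point, at 7.35 as fitted.

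Whether BPA changed the response to KBrO3 was tested by setting co-exposure against KBrO3 alone at the same time, over all probes of the first set, with a call at an adjusted p below 0.05 and a fold beyond 1.5. At 4 hr 1 of the 8 genes was called, Il1rn, where 12.1% of all genes tested were called higher and 8.90% lower. Il1rn rose 2.41-fold (log2 difference 1.27, SE 0.13; limma, Benjamini-Hochberg adjusted p = 6.35e-06), with every co-exposure array above every KBrO3 array, and its other probe gave 1.09 (limma, adjusted p = 2.22e-05). At 24 hr the Il1rn difference was 0.25 and was not called (limma, adjusted p = 0.122).

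At 24 hr 1 of the 8 genes was called, Il18, where 5.78% of all genes were called higher and 8.41% lower. Il18 rose 1.84-fold with co-exposure over KBrO3 alone (0.88, SE 0.05; limma, adjusted p = 1.27e-07), again with no overlap. Within the 1 slide that held 2 arrays of both groups the difference was 0.97. At 4 hr the groups differed by -0.08 (limma, adjusted p = 0.222).

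Several differences passed the adjusted threshold but stayed below 1.5-fold. The short Il1rl1 probe was 1.37-fold higher with co-exposure at 4 hr and 1.42-fold at 24 hr (limma; adjusted p-values of 3.16e-05 and 1.42e-05). The upstream Il1rl1 probe was 0.79 higher at 4 hr, past both limits (limma, adjusted p = 1.04e-07), and 0.09 higher at 24 hr. Il1r1 was 0.44 higher at 4 hr (limma, adjusted p = 0.00061) and differed by -0.52 at 24 hr (limma, adjusted p = 0.000203). The 24 hr difference passed 1.5-fold within the shared slide (-0.63) and without co-exposure 24 hr replicate 3 (-0.64). Il33 was lower with co-exposure at both times, by -0.51 at 4 hr and -0.38 at 24 hr (limma; adjusted p-values of 0.000849 and 0.00737). Il1rap was 0.50 higher at 4 hr (limma, adjusted p = 0.000485). Some of these passed 1.5-fold under other settings: Il1rap at 4 hr with slide as a random block (0.68) and the mean of probes (0.62), and with median scaling Il33 at 4 hr (-0.66) and short Il1rl1 at 24 hr (0.67). For Il18r1 the co-exposure differences were -0.16 at 4 hr and 0.27 at 24 hr (limma; adjusted p-values of 0.216 and 0.0586), and for Il18rap -0.13 and -0.22 (limma, adjusted p = 0.17 and 0.0369). At 4 hr each of these groups sat on its own slide, so slide and treatment cannot be told apart there.

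The co-exposure minus KBrO3 difference itself changed between 4 and 24 hr for 3 of the 8 genes, tested as an interaction, where 27.9% of all genes were called. For Il18 the change was 0.96 (SE 0.08; limma, adjusted p = 2.34e-06; with normexp 0.78, adjusted p = 0.0522, not called), for Il1rn -1.02 (SE 0.18; limma, adjusted p = 0.000549) and for Il1r1 -0.97 (SE 0.11; limma, adjusted p = 3.58e-05). For Il1rap the change was -0.57, below 1.5-fold (limma, adjusted p = 0.00226), and it passed 1.5-fold without KBrO3 4 hr replicate 3, co-exposure 4 hr replicate 2, KBrO3 24 hr replicate 1 or co-exposure 24 hr replicate 1 (-0.60, -0.60, -0.69 and -0.60), with slide as a random block (-0.80) and with the mean of probes (-0.70). Another Il1rap probe was called, at -1.03 (limma, adjusted p = 0.00115). For Il18r1 the change was 0.43, below 1.5-fold (limma, adjusted p = 0.0309), and it passed with quantile normalization (0.59) and median scaling (0.74). This change contains the 4 hr difference, so its treatment and slide cannot be told apart, and the same goes for KBrO3 24 hr against 4 hr. The upstream Il1rl1 probe also changed, by -0.70 (limma, adjusted p = 5.18e-06), while the short and long probes changed by 0.05 and -0.03 (limma, adjusted p = 0.618 and 0.785).

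Time was tested by setting 24 hr against 4 hr within a treatment. These arrays also entered the differences that were known when the genes were chosen, and genes picked for high values at 4 hr would tend to be lower at 24 hr. After KBrO3 all 8 genes tested fell, where 28.6% of all genes did. Il18r1 fell 32.7-fold (-5.03, SE 0.11; limma, adjusted p = 2.1e-12), and Il33 8.55-fold (-3.10; limma, adjusted p = 4.94e-11). Il1r1 changed by -2.26, Il1rn by -1.25, Il18 by -1.07, Il18rap by -0.98, short Il1rl1 by -0.93 and Il1rap by -0.63, with adjusted p from limma between 1.29e-10 and 3.1e-05. The Il1rap call did not hold on the fold limit without KBrO3 24 hr replicate 1 (-0.52), and another Il1rap probe was 0.40 higher at 24 hr (limma, adjusted p = 0.0228). The long Il1rl1 probe changed by -2.08. Calls were also lost for short Il1rl1 with quantile normalization (-0.14), for Il18rap with normexp (-0.81, limma adjusted p = 0.153), and for Il1rap with median scaling (-0.48) and normexp (-0.57).

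After co-exposure 7 of the 8 fell, where 36.0% of all genes did. Il18r1 fell 24.3-fold (-4.60; limma, adjusted p = 2.79e-12), Il33 7.78-fold (-2.96; limma, adjusted p = 5.74e-11) and Il1r1 by 3.23 on the log2 scale (limma, adjusted p = 5.06e-12). Il18 was the exception, at -0.11 (limma, adjusted p = 0.095). The Il18rap call was lost with quantile normalization (-0.55), normexp (-0.67) and the mean of probes (-0.42), and the short Il1rl1 call with quantile normalization (-0.37) and median scaling (-0.42). With BPA alone 1 of the 8 fell, where 2.91% of all genes did: Il33, 2.53-fold lower at 24 than at 4 hr (-1.34; limma, adjusted p = 0.0229). That call was lost with normexp (-1.35), slide as a fixed block (-0.97) or the replicate number as a block (-1.34). It was also lost when any 1 of 5 of the 6 BPA arrays was left out (all but BPA 24 hr replicate 3), at -1.46 to -1.21. Normexp and slide as a fixed block called 0 of all 31806 probes in this comparison. Il18r1 was at least 2.48-fold lower at 24 hr than at 4 hr of BPA, given with no test because it passed the filter of this set only through BPA 4 hr. The residual SD at the median probe was 0.106 for the first set and 0.318 for the second, so smaller differences could be called in the first.

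All 6 receptor genes of the family on chromosome 1 stand next to each other, in the order Il1r2, Il1r1, Il1rl2, Il1rl1, Il18r1 and Il18rap, with no other protein-coding gene between them in the RefSeq annotation of GRCm38.p6. At KBrO3 4 hr the 5 that were tested differed from untreated by 0.42 (Il1r1, below 1.5-fold), 1.58 (Il1rl2), 1.56 (Il1rl1), 7.35 as fitted (Il18r1, not above background untreated) and 0.97 (Il18rap). The median of all genes was 0.05. Il1r2, a decoy receptor for IL-1, was not tested in the first set. At KBrO3 24 hr Il1r1 and Il1rl2 stood at -1.84 and -1.97 from untreated, while Il1rl1 was 0.63 above. On the flank after Il18rap, Slc9a2, a sodium/proton exchanger, was not above background untreated and was above it on all 3 KBrO3 4 hr arrays (3.23 as fitted), and Mfsd9 was at 0.33. On the other flank, Map4k4 was at 0.46, above the 0.42 of Il1r1.

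**Figure D4:**
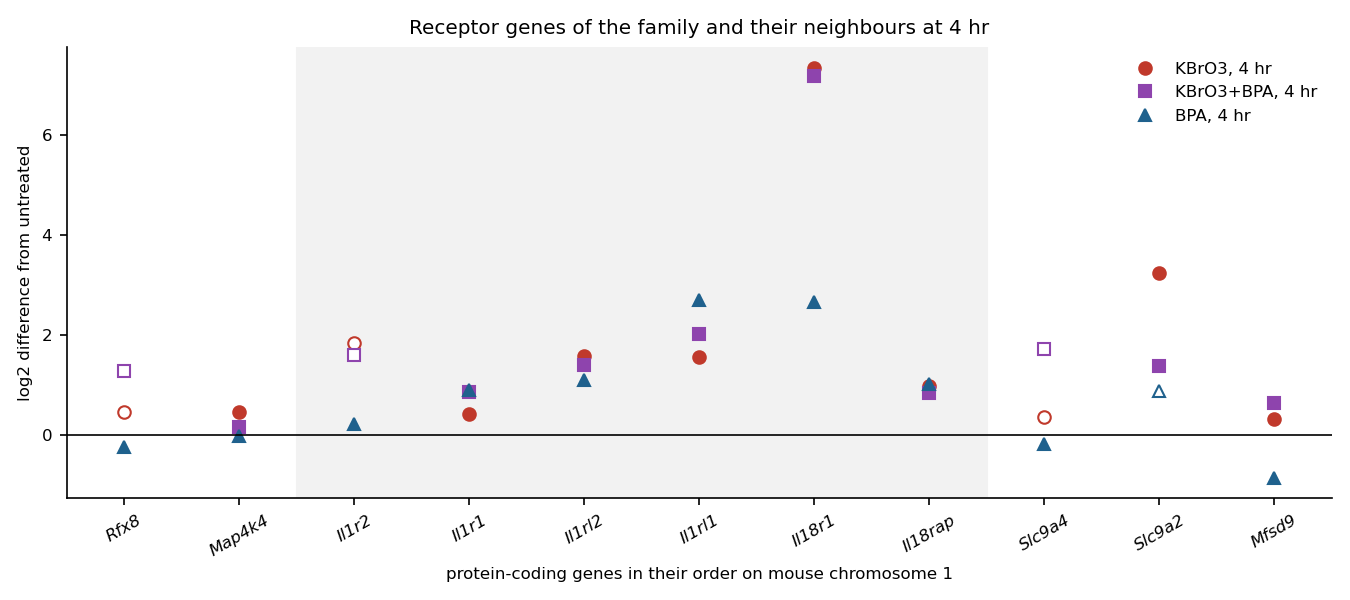
Log2 difference from untreated (vertical axis) for the genes of the receptor cluster on chromosome 1 and up to 3 neighbours on each side, in chromosome order (horizontal axis, equal steps and not base pairs), with open points where the probe was not tested and the receptor genes shaded. Il18r1 stands highest at 4 hr after KBrO3 and after co-exposure, at 7.35 and 7.19 as fitted.

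The starts of the adjacent Il1rl1, Il18r1 and Il18rap genes were read from RefSeq (GRCm38.p6) because their levels were all higher at KBrO3 4 hr. The 250 bases before each start follow on the plus strand, in lower case with any motif match in capitals.
Il1rl1, upstream start, chr1:40429320-40429569: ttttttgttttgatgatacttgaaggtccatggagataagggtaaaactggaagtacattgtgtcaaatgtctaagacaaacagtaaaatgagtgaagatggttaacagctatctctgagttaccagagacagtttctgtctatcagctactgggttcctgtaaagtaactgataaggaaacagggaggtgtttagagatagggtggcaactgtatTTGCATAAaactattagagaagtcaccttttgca
Il1rl1, downstream start, chr1:40439379-40439628: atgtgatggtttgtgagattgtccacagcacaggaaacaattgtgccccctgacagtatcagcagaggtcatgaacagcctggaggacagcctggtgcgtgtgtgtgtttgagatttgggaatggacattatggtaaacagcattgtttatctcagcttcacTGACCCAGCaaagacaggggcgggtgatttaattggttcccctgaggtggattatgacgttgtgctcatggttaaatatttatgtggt
Il18r1, first start, chr1:40465302-40465551: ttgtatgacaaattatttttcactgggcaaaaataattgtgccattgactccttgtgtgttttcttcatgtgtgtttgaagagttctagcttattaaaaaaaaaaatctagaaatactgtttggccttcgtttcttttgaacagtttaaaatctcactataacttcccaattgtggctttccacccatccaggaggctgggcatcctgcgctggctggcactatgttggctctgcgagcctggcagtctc
Il18rap, chr1:40515112-40515361: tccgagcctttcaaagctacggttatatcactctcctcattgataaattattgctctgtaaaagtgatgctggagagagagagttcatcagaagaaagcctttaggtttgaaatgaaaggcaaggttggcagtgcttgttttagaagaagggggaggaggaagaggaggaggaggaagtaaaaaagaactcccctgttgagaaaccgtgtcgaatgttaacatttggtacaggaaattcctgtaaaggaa
Searched on both strands were NF-kB (GGG, any 2 bases, TTTCC), AP-1 (TGANTCA), CRE (TGACGTCA), the antioxidant response element (TGACNNNGC), C/EBP (TTGCNNAA) and GAS (TTCNNNGAA), where N is any base and AP-1 and antioxidant element letters can share bases. The upstream Il1rl1 window held a C/EBP match (9.56% of 32851 windows of this length hold one), the downstream Il1rl1 window an antioxidant element match (10.2%), and the Il18r1 and Il18rap windows shown held no match. NF-kB letters were in 1.41% of windows, AP-1 in 6.75% and CRE in 1.55%. Another Il18r1 start, chr1:40465756-40466005, held GAS matches (7.02%). Over the 17 windows of the 10 genes, 8 held any match, against 31.3% of all 32851 windows. A match is only a run of letters.

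Genes that act beside these receptors were taken as a list of 37 (other family members, signaling adaptors and the inflammasome), of which 35 were on the array and 29 tested in the first set. This list was chosen with earlier results of these data known. At KBrO3 4 hr 7 rose and 9 fell, where 21.3% and 23.0% of all genes did, and at co-exposure 4 hr 10 rose and 10 fell (29.1% and 25.5%). The median of the list was -0.16 and 0.03, against 0.05 for all genes in both. At 24 hr 3 rose and 11 fell after KBrO3 (12.4% and 20.7%) and 4 rose and 10 fell after co-exposure (14.6% and 24.9%), with medians of -0.20 and -0.40 against -0.07 and -0.11.

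Txnip, which binds thioredoxin and can engage the NLRP3 inflammasome, fell 11.9-fold at KBrO3 4 hr (-3.57; limma, adjusted p = 1.03e-12) and 17.1-fold at co-exposure 4 hr. Tifa, a TRAF6-binding adaptor, fell 6.46-fold and 4.69-fold in the same groups. Il1rl2, the receptor for IL-36, rose 2.98-fold at KBrO3 4 hr, and Peli1, a ubiquitin ligase of IRAK complexes, rose 2.64-fold. Mefv, which codes for pyrin, rose at least 3.20-fold at co-exposure 4 hr, and Peli1 by 1.49. At 24 hr Casp1, the protease that cleaves pro-IL-18, was 5.71-fold lower after KBrO3 and 3.90-fold lower after co-exposure. Irak3, an inhibitory member of the IRAK family, was 3.55-fold lower at KBrO3 24 hr (-1.83) and at -1.92 after co-exposure. Il1rl2 (-1.97) and Tifa (-1.62) were the other large falls at KBrO3 24 hr, and Txnip (-2.21) and Nlrp3 (-1.87), the inflammasome sensor, at co-exposure 24 hr.

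Of the 14 signaling genes 4 rose and 4 fell at KBrO3 4 hr (21.3% and 23.0% of all genes), 6 and 4 at co-exposure 4 hr (29.1% and 25.5%), 3 and 3 at KBrO3 24 hr (12.4% and 20.7%), and 4 and 2 at co-exposure 24 hr (14.6% and 24.9%). Irak2 (-1.26) and Irak4 (-1.10), kinases recruited by MyD88, fell at KBrO3 4 hr. Myd88, the adaptor itself, was above untreated by 0.32 at KBrO3 4 hr (not called) and rose by 0.92 at co-exposure 4 hr, and Traf6 and Map3k7 (TAK1) rose in all 4 groups of the first set. Of the 9 tested inflammasome genes, 5 fell at KBrO3 4 hr and 0 rose, and 6 fell and 0 rose at KBrO3 24 hr, where 23.0% and 20.7% of all genes fell. At co-exposure 4 hr 6 fell and 1 rose, and at co-exposure 24 hr 5 fell and 0 rose (25.5% and 24.9% of all genes fell). With BPA alone 30 genes of the 37 were tested, and 2 rose and 0 fell at 4 hr (2.75% and 1.46% of all genes). Those were Casp4, the sensor of intracellular lipopolysaccharide, up 7.36-fold (limma, adjusted p = 0.000734), and Il1rl2, up 2.14-fold (limma, adjusted p = 0.0445), and these 2 calls became 1 or 0 under most alternative settings and 1 to 2 with an array left out. At BPA 24 hr Casp4 was 4.37-fold higher and Txnip 2.80-fold lower (limma, adjusted p = 0.00448 and 0.0399), and these calls became 0 with normexp or slide as a fixed block and 1 to 2 with an array left out. Normexp and slide as a fixed block called 0 of all 31806 probes at BPA 24 hr. In the first set Casp4 fell at KBrO3 4 hr, by 1.15 on the log2 scale.

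The level of a receptor does not show whether it signals. A list of 24 genes that fibroblasts are known to raise after IL-1 was read as well, with 21 of them tested in the first set, and 22 in set 2. The list was chosen with earlier results of these data known, so its counts and p-values are not independent of those results. Whether IL-1 or its receptors moved these genes was not tested. The largest shift was with BPA alone at 4 hr, where 21 of 22 rose and 0 fell (2.75% and 1.46% of all genes) and the median difference was 3.03, against -0.03 for all genes. Ccl20, a chemokine, rose 62.9-fold (limma, adjusted p = 0.000193), Il6 50.6-fold (limma, adjusted p = 0.000152), Cxcl2 at least 42.8-fold, and Saa3, an acute-phase protein, 25.8-fold. Irak3, which is also in the signaling list, was the 1 gene not called, at 0.58. At BPA 24 hr 9 rose and 0 fell (1.51% and 2.16% of all genes), led by Saa3 at 25.4-fold and Lcn2 at 18.9-fold, then Mmp13 and Il6 (both 2.52). With normexp the calls were 8 at 4 hr and 0 at 24 hr.

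KBrO3 and co-exposure gave another pattern in the same genes. At KBrO3 4 hr 10 rose and 3 fell with a median of 0.36 (21.3% and 23.0% of all genes), and at co-exposure 4 hr 12 rose and 1 fell with a median of 0.69 (29.1% and 25.5%). Ptgs2, the inducible cyclooxygenase, rose 67.7-fold after KBrO3 (limma, adjusted p = 7.86e-15) and 66.6-fold after co-exposure. The next largest rises were Cxcl1 (2.24), Cxcl2 (2.09) and Il6 (1.90) at KBrO3 4 hr, and Csf2 (2.80), Ccl20 (2.55) and Cxcl2 (2.48) at co-exposure 4 hr. At 24 hr 1 rose and 15 fell after KBrO3 (median -1.45; 12.4% and 20.7% of all genes), and 1 rose and 19 fell after co-exposure (median -1.92; 14.6% and 24.9%). Saa3 was 13.1-fold lower at KBrO3 24 hr and 17.6-fold lower at co-exposure 24 hr, and Lcn2, a siderophore-binding protein, was at -3.25 from untreated at KBrO3 24 hr. Zc3h12a (-2.40) and Csf2 (at least 2.47-fold lower) followed at KBrO3 24 hr, and Cxcl5 (-2.68), Vcam1 (-2.48) and Csf2 (at least 1.97-fold lower) at co-exposure 24 hr. Ptgs2 was the 1 gene that was called higher at 24 hr in both. Co-exposure set against KBrO3 alone gave 6 higher and 1 lower at 4 hr (12.1% and 8.90% of all genes), and 1 higher and 4 lower at 24 hr (5.78% and 8.41%).

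**Figure D5:**
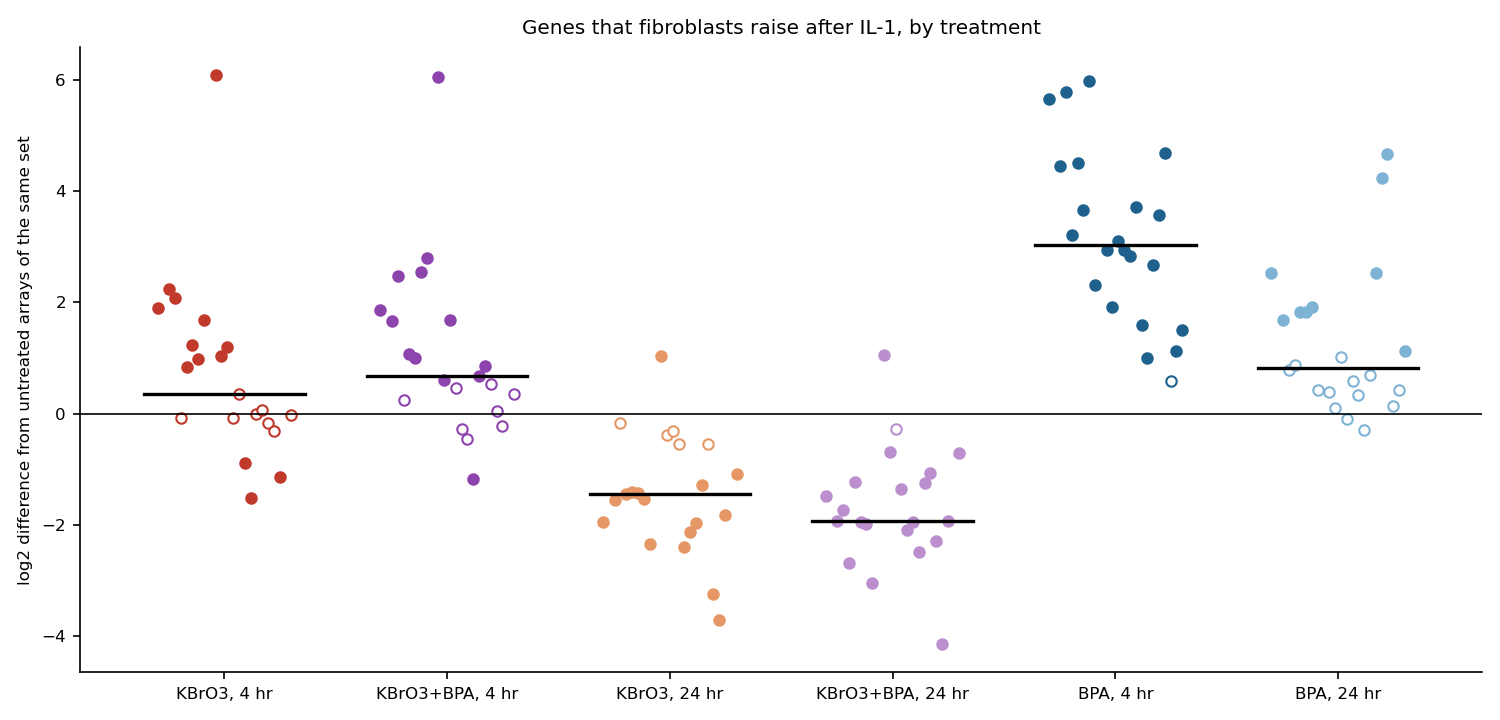
Log2 difference from untreated (vertical axis) of genes that fibroblasts raise after IL-1, 1 point per gene in each treated group (horizontal axis), filled where called, with a bar at the median. The median is 3.03 at BPA 4 hr and -1.92 at co-exposure 24 hr.

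The genes whose levels ran most like Il18r1 over the 15 arrays of the first set were Klf4 (Pearson r 0.9989), 2410002F23Rik (0.9982), Gclc (0.9981), Il1rl1 by its long-transcript probe (0.9977) and Dnajb1 (0.9976). Klf4 is a transcription factor, Gclc makes glutathione and Dnajb1 is a heat shock co-chaperone. For Il18 they included Bdh2 (0.9877), 2810408A11Rik (0.9872), Unc93b1 (0.9815) and Anpep (0.9762). The points are 5 groups of 3 arrays, so the correlations mostly follow the group means and are a description.

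The fibroblast label was read against marker genes. All 12 fibroblast markers were above background on all 3 arrays of every group except KBrO3 24 hr and co-exposure 24 hr, where 11 were, and Thy1 was above it on no co-exposure 24 hr array. The summed fibroblast marker signal, relative to the 75th percentile, was 1979 to 2104 untreated, 1820 to 1906 at KBrO3 4 hr, 1439 to 1471 at co-exposure 4 hr, 764.9 to 867.2 at KBrO3 24 hr and 533.3 to 622.5 at co-exposure 24 hr. It was lower at 24 hr after KBrO3 and co-exposure, where Il1r1, Il1rn and Il33 were also lower. In set 2 it was 768.8 to 875.4 untreated, 746.8 to 890.3 at BPA 4 hr and 614.7 to 733.7 at BPA 24 hr. In bulk RNA, fewer cells of a type and less RNA per cell cannot be told apart. Ptprc (CD45) was above background on no array, and the 10 leukocyte markers summed to 2.41 to 3.17 on the arrays of set 1 and to 1.11 to 1.499 on those of set 2. Most of the sum in set 1 was Cd14, at 1.30 untreated and 0.56 to 1.20 in the treated groups. Single leukocyte markers moved both ways: Cd68 stood at -3.08 untreated and at -0.83, -1.42, -1.92 and -1.21 at KBrO3 4 hr, co-exposure 4 hr, KBrO3 24 hr and co-exposure 24 hr. Csf1r stood at -4.96 untreated and at -3.95, -3.72, -4.86 and -5.54 in the same order, and Laptm5, above background on no untreated array, at -5.23 at KBrO3 4 hr. Lyz2 went from -1.21 untreated to -3.29 at KBrO3 24 hr and -3.72 at co-exposure 24 hr. The 10 mast, T and NK cell markers summed to 0.75 to 1.66 in the first set, with Ncr1 above background nowhere. The 8 epithelial markers summed to 1.94 to 2.00 at KBrO3 4 hr, against 1.06 to 1.23 untreated and 0.42 to 0.46 at co-exposure 24 hr, with Cdh1 above background nowhere in that set. In set 2 the epithelial markers summed to 1.22 to 2.37 untreated, 1.15 to 1.21 at BPA 4 hr and 0.33 to 0.91 at BPA 24 hr. The 6 endothelial markers summed to at most 0.35 in set 1, without Pecam1. The part of these markers in the results was not tested. The Xrcc6 (Ku70) probe was above background on all 24 arrays, and where it lies relative to the deletion was not examined, so it does not check the genotype.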

How the data were processed

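RNA of 24 samples was hybridized to 1-colour Agilent mouse arrays. The authors deposited scanner output of Agilent Feature Extraction (version 9.5.3.1 in set 1 and 12.0.0.7 in set 2, per the file headers), in which gProcessedSignal is a background-subtracted intensity on a linear scale; the deposited series table held the same 1080432 of 1080432 values. Spots of a probe were averaged, and log2 of the intensity minus the 75th percentile of each array was computed here, since the deposited intensity is not on a log scale. Of the 41174 probes, 22951 were named by accession, 9768 by symbol or synonym and 8455 only by the name in the file. Each set was fitted with limma 3.58.1 (R 4.3.3; lmFit, eBayes, two-sided) over all groups, on probes above background on all arrays of at least 1 group, with Benjamini-Hochberg adjustment over all probes tested. A gene was called at an adjusted p below 0.05 and a fold beyond 1.5, and was represented by its brightest probe over all arrays; the counts of genes tested were 18290 and 21252.

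All 10 genes are named; of the pathway and response lists, the 4 largest changes from untreated per comparison are given, and other called pathway genes may be named. Of the genes most like Il18, 1 is not reported here. The genes and lists were chosen with earlier results of these data known. The response counts under other settings were added after seeing the data. Tests were tried on simulated data. Alternatives were median, quantile and normexp processing (offset 50, on gMedianSignal in the second set, where gMeanSignal is not given), other filters, slide and replicate blocks, other probes, the methods' thresholds (Bonferroni-adjusted p below 0.01 and a fold beyond 1.5), and leaving out each array. The p-values measure the spread between arrays of 1 cell line. The number of arrays limits precision; 57.7 to 68.1% of spots were above background in set 1 and 76.4 to 79.4% in set 2.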

Additional observations from a re-analysis of the deposited data

Results flagged for a closer look

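The effect of adding BPA to KBrO3 differed between 4 and 24 hr, by the interaction term of the fit, for Il1r1 (-0.965 on the log2 scale), Il1rn (-1.02) and Il18 (0.964). The 4 hr groups sat on separate slides, so in this term treatment and slide cannot be told apart.

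After co-exposure, Il18rap, Il1r1, Il1rap, Il1rn and Il33 had all 3 arrays above every untreated array at 4 hr and all 3 below every one at 24 hr. The 24 hr minus 4 hr differences were -1.06 for Il18rap, -3.23 for Il1r1, -1.2 for Il1rap, -2.27 for Il1rn and -2.96 for Il33. For Il18rap the 4 hr side turned with normexp (-0.65 from untreated). For Il1rn and Il1rap this describes the brightest probe: the other Il1rn probe was below untreated also at 4 hr (-1.51 to -1.46 against -1.11 to -0.96), and another Il1rap probe overlapped untreated at co-exposure 24 hr. After KBrO3 alone the same held for Il1r1 (-2.26), Il1rap (-0.632) and Il33 (-3.1). The 2 sides share the untreated arrays, which are labelled 4 h and share a slide with KBrO3 4 hr arrays only. The 24 hr against 4 hr differences themselves were called in each case, but not under every alternative: Il18rap after co-exposure was lost with quantile normalization (-0.55), normexp (-0.67) and the mean of probes (-0.42), and Il1rap after KBrO3 with median scaling (-0.48), normexp (-0.57) and without KBrO3 24 hr replicate 1 (-0.52). For Il1rap after KBrO3 the lowest 4 hr array (0.0333) was barely above the highest untreated array (0.0317). Another Il1rap probe lay below untreated at KBrO3 4 hr (-0.28) and overlapped it at KBrO3 24 hr (0.12).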

How the results depend on the processing

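With normexp, Il18r1 at 24 hr turned to -1.08 (KBrO3) and -0.88 (co-exposure) against untreated, and Il18rap at 4 hr to -0.57 and -0.65; normexp moved the median of all probes in the 4 comparisons with untreated of the first set by -0.45 to -0.53, and the cause of the turns was not tested. Of the other values of the 10 genes under alternatives, 1569 kept their direction and side, 106 moved, 18 passed and 19 lost the threshold.

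For co-exposure against KBrO3 at 4 hr, the 1 call became 2 with median scaling, no filter, slide as a random block or the mean of probes, 0 at the methods' thresholds (5 at an unadjusted p below 0.05) and 5 with no fold limit; at 24 hr it became 2 with median scaling or slide as a fixed block and 5 with no fold limit, and 1 to 2 with an array left out. The change between times gave 1 call at the methods' thresholds and 5 with no fold limit, instead of 3, and 3 to 4 with an array left out; Il18r1 passed with quantile normalization and median scaling, and Il1rap with slide as a random block and the mean of probes. For BPA 24 against 4 hr the 1 call became 0 with normexp, slide as a fixed block, the replicate block or the methods' thresholds (limma; 2, 3, 4 and 4 at an unadjusted p below 0.05), 4 with all 24 arrays in 1 fit, and 0 to 1 with an array left out. For 24 against 4 hr the counts with an array left out were 7 to 8 after KBrO3 and 7 after co-exposure, and with quantile normalization, median scaling and normexp they were 7, 7 and 6 after KBrO3 (8 as reported) and 5, 6 and 6 after co-exposure (7 as reported). Median scaling moved the median of all probes by 0.46 for co-exposure 24 against 4 hr.

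The pathway calls fell from 16 to 9 (KBrO3 4 hr), from 20 to 13 (co-exposure 4 hr) and from 14 to 8 (co-exposure 24 hr) at the methods' thresholds, from 20 to 11 with normexp at co-exposure 4 hr, and rose to 23 with no fold limit at co-exposure 24 hr. The 2 calls at BPA 4 hr became 1 with quantile, median or normexp processing, no filter, the replicate block, only the arrays compared or the mean of probes, 0 with slide as a fixed block or the methods' thresholds (limma; 5 and 4 at an unadjusted p below 0.05), and 5 with all arrays. The 2 at BPA 24 hr became 1 with median scaling, no filter, the replicate block, only the arrays compared or the mean of probes, 0 with normexp, slide as a fixed block or the methods' thresholds (3, 5 and 6 unadjusted), and 5 with all arrays. Both were 1 to 2 with an array left out. The response calls at BPA 4 hr were 8 with normexp, 0 with slide as a fixed block (22 unadjusted) and 17 to 20 with an array left out, and at BPA 24 hr 0 with normexp (11 unadjusted), 0 with slide (12 unadjusted), 5 with only the arrays compared and 6 to 9 with an array left out. With slide as a fixed block the second set has 2 residual degrees of freedom. Over all 31806 probes of that set normexp called 17 at BPA 4 hr, 0 at BPA 24 hr and 0 for 24 against 4 hr. Slide as a fixed block called 0 in each of these comparisons.

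Arrays with the same replicate number had a mean correlation of deviations of -0.029 over 30 pairs in set 1 (-0.212 to 0.106). In set 2 it was 0.0020 over 9 pairs (-0.384 to 0.648), a spread that cannot show whether replicate numbers pair the samples there. For the listed genes the replicate block moved the counts above and no other by over 1.5 times. Over all probes of set 2 it moved the calls from 1349 to 677 (BPA 4 hr), 1084 to 529 (BPA 24 hr) and 1206 to 762 (24 against 4 hr). Probes near background, such as Il18r1 untreated, have only a bound.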
